A study of Bos taurus with 8 samples.

Results

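Genes of the antioxidant defence were followed in cultured bovine retinal cells exposed to HIV-1 proteins. The set holds 10 genes, chosen by name: HMOX1, NQO1, GCLM, GCLC, TXNRD1, SRXN1, SLC7A11, SOD1, SOD2 and CAT. The arrays carry 20 probes whose gene name is one of these, out of 51282 probes in all. 18 of the 20, for 8 genes, were bright enough to be tested among 31153 probes, and every one of these 18 was well above background on all 8 arrays. The cells are given by the labels as primary bovine Müller glia, the main glial cells of the retina, grown from eyeballs for 18 to 21 days. They were exposed for 24 h to recombinant TAT, the viral transactivator protein, at 100 ng/ml (3 arrays, letters A, B and C), to recombinant gp120, the viral envelope glycoprotein, at 60 ng/ml (3 arrays, letters A, B and C), or belonged to the control (2 arrays, letters A and B). The groups come from the titles and descriptions. The treatment text is the same for all 8 samples and names both proteins, controls included, and the labels do not state what the controls received. The labels do not say what the letters stand for, nor whether cultures or animals were separate or pooled, so each p-value reflects spread among these arrays alone, which may be technical. The strain, age and sex of the animals are not given in the sources used here, and the extraction text speaks of astrocytes.

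NRF2, encoded by NFE2L2, is a transcription factor that KEAP1 holds back and marks for degradation in unstressed cells. Oxidants and electrophiles release it, and it then switches on genes for glutathione synthesis, thioredoxin recycling, heme breakdown and quinone detoxification. The superoxide dismutases turn superoxide into hydrogen peroxide, which catalase and the peroxiredoxins remove. SOD2 is in addition a well known target of NF-kB in inflamed cells, and Müller glia are known for supplying glutathione precursors to retinal neurons.

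Of the defining markers, GLUL, the glutamine synthetase of Müller glia, was well above background on all 8 arrays, as were AIF1 of microglia and COL1A1 of fibroblasts. RLBP1, the retinaldehyde binding protein of Müller glia, and GFAP, the intermediate filament of reactive glia, were well above background on only 2 of 8 arrays each. Between 55.46% and 64.62% of the spots of an array were well above background and 0 were saturated. All arrays lay on 1 slide. Row 1 held TAT A, gp120 A, control A and control B, and row 2 held TAT B, TAT C, gp120 B and gp120 C. gp120 B and gp120 C came from another scan than the other 6 arrays. The number of arrays limits the precision of every value that follows.

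Probes of 3 of the genes that differed between arrays are shown so that the measured stretches can be seen. Probe A_73_P100016 of SOD2 is placed by the files at chr9:99818858-99818917, minus strand, and probe A_73_P091051 of TXNRD1 at chr5:72976943-72980957, plus strand, a span of 4015 bases for a 60-base probe, which therefore joins stretches that lie apart in the genome. The CAT probes A_73_P269456 (chr15:64711606-64711665) and A_73_P253121 (chr15:64711624-64711683), both on the plus strand, overlap, and capitals mark the 42 bases they share. Positions are those of the files, on the build HGSC Btau_3.1, and an annotation of exons and UTRs for that build was not used here.
SOD2, A_73_P100016: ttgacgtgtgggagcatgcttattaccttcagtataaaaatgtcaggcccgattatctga
TXNRD1, A_73_P091051: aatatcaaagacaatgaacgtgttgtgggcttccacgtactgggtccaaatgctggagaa
CAT, A_73_P269456: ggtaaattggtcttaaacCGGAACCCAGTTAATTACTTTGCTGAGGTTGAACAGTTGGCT
CAT, A_73_P253121: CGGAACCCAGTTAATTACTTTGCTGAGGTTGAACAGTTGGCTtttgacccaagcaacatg

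Neither viral protein changed any of these genes past the test. In TAT minus control 0 of the 18 probes were called, as were 0.0% of all 31153 probes, in gp120 minus control 0 of 18 with 0.0% of all, and in TAT minus gp120 0 of 18 with 0.0% of all (limma on log2 signals, two-sided, Benjamini-Hochberg over all tested probes, threshold 0.05). At an unadjusted p under 0.05 the members also counted 0 in each comparison, while 414, 1328 and 1226 of all probes fell there in TAT minus control, gp120 minus control and TAT minus gp120. The smallest unadjusted p of a member was 0.245 with TAT and 0.299 with gp120. In TAT minus control 3 member probes were above 0 and 15 below, with a median of -0.17 on the log2 scale against -0.03 over all probes. In gp120 minus control 4 were above 0 and 14 below, with a median of -0.09 against -0.01 over all probes. Of all probes 45.4% were above 0 in TAT minus control and 48.7% in gp120 minus control. TAT and gp120 comparisons share their 2 control arrays. All levels are log2 processed signals minus the array's 75th percentile and serve to compare arrays for 1 probe, not probes with each other. In bulk samples fewer cells of a type and less RNA per cell cannot be told apart.

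**Figure D1:**
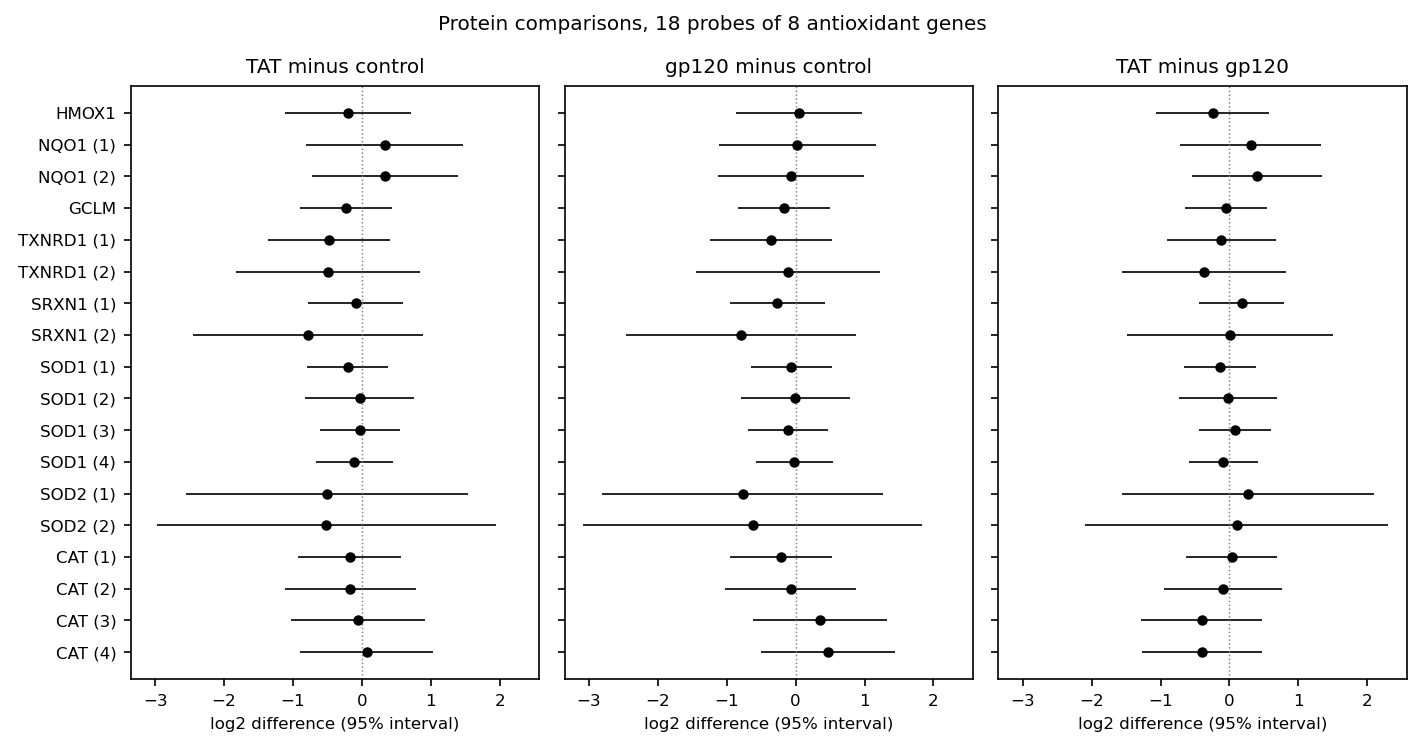
Differences in log2 signal (x axis) of 18 probes of 8 antioxidant genes (y axis, probes of a gene numbered from the brightest) for TAT minus control, gp120 minus control and TAT minus gp120. Points are limma estimates from 8 arrays and bars are 95% intervals; all 54 intervals include 0, and those of the SOD2 probes are the widest.

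HMOX1, which breaks heme down to biliverdin, iron and carbon monoxide, stood at 6.96, 5.88 and 6.63 in TAT A, B and C, at 7.10, 6.17 and 6.93 in gp120 A, B and C, and at 6.83 and 6.54 in control A and B. The groups overlapped, and the lowest array with either protein was the letter B one. The difference was -0.20 (SE 0.40) in TAT minus control and 0.045 (SE 0.40) in gp120 minus control.

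NQO1, which reduces quinones without releasing radicals, stood at 1.07, 1.90 and 1.89 in TAT A, B and C, at 0.94, 1.47 and 1.54 in gp120 A, B and C, and at 0.48 and 2.09 in control A and B. Both controls lay outside the range of the treated arrays, 1 on each side. Its brightest probe differed by 0.33 (SE 0.49) in TAT minus control and by 0.026 (SE 0.49) in gp120 minus control. The second NQO1 probe overlaps the first by 46 bases and gave 0.33 (SE 0.46) and -0.067 (SE 0.46) in the same comparisons.

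The genes of glutathione synthesis were measured unevenly. GCLM, the modifier subunit of glutamate-cysteine ligase, which makes the first step of glutathione synthesis, stood at 1.15, 0.57 and 0.64 in TAT A, B and C, at 1.22, 0.73 and 0.57 in gp120 A, B and C, and at 1.12 and 0.90 in control A and B. Its differences were -0.23 (SE 0.29) with TAT and -0.17 (SE 0.29) with gp120. The probe of GCLC, the catalytic subunit, was well above background on 5 of 8 arrays (TAT A, TAT B, gp120 A, gp120 B and control A) and in no group on every array, so it was not tested. The probe of SLC7A11, the cystine importer that feeds glutathione synthesis, was well above background on 0 of 8 arrays, so no level can be given for it.

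TXNRD1, the cytosolic thioredoxin reductase, stood at 5.36, 4.33 and 4.74 in TAT A, B and C, at 5.40, 4.80 and 4.60 in gp120 A, B and C, and at 5.57 and 5.01 in control A and B. Its difference of -0.48 (SE 0.38) in TAT minus control had the smallest unadjusted p of the 18 probes there, 0.245 (limma, adjusted p = 0.9998). In gp120 minus control it was -0.36 (SE 0.38). SRXN1, sulfiredoxin, which restores overoxidised peroxiredoxins, stood on its brightest probe at 4.49, 3.58 and 4.00 in TAT A, B and C, at 4.07, 3.69 and 3.76 in gp120 A, B and C, and at 4.14 and 4.08 in control A and B. It was the only member probe whose groups did not overlap in gp120 against control, 1 of 18 with 15.7% of all probes. The gap was under 0.01 and the difference -0.27 (SE 0.30, adjusted p = 0.964 in limma). In TAT against control 0 of 18 member probes were without overlap, with 14.3% of all probes, and in TAT against gp120 0 of 18, with 7.86% of all.

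Among the enzymes of superoxide and peroxide, SOD1, the cytosolic copper-zinc dismutase, stood at 4.77, 5.16 and 5.28 in TAT A, B and C, at 5.04, 5.24 and 5.35 in gp120 A, B and C, and at 5.06 and 5.48 in control A and B. Its 4 probes differed by -0.20 to -0.030 in TAT minus control and by -0.11 to -0.0024 in gp120 minus control. CAT, the peroxisomal catalase, stood on its brightest probe at 2.86, 3.64 and 3.52 in TAT A, B and C, at 3.02, 3.42 and 3.49 in gp120 A, B and C, and at 3.24 and 3.796 in control A and B. The CAT probes did not agree in sign with gp120: the brightest gave -0.21 (SE 0.32), and the overlapping pair printed above gave 0.47 (SE 0.42) and 0.35 (SE 0.42), in the order printed. SOD2, the mitochondrial manganese dismutase, differed by -0.51 (SE 0.88) in TAT minus control and -0.77 (SE 0.88) in gp120 minus control, and its SE was the largest among the 8 brightest probes. The 95% interval reached from -2.55 to 1.54 with TAT and from -2.82 to 1.28 with gp120. Over the 18 probes the interval of TAT minus control extended a median of 0.94 to each side. With the letter as a block the SE of the brightest SOD2 probe became 0.21, and its difference -0.24 in TAT minus control and -0.51 in gp120 minus control (limma, unadjusted p = 0.048, adjusted p = 0.646). It was the 1 member probe of 18 at an unadjusted p under 0.05 with that block in gp120 minus control, and 0 of 18 were there in TAT minus control. The second SOD2 probe gave -0.20 with that block in gp120 minus control (limma, unadjusted p = 0.47). gp120 B and gp120 C came from another scan than the controls. With scan as a block, the brightest SOD2 probe gave 0.55 in gp120 minus control. That value sets gp120 A alone against control A and control B, so the letters are not balanced in it. Between arrays of the same letter, gp120 minus control was -0.58 for letter A and -0.45 for letter B on that probe.

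Within a letter the signs varied. Of the 8 genes (brightest probe), 4 were higher and 4 lower in TAT A than in control A, and 1 was higher and 7 lower in TAT B than in control B. In gp120 A 3 were higher and 5 lower than in control A, and in gp120 B 0 were higher and 8 lower than in control B. In gp120 B minus control B the overlapping CAT probes gave 0.65 and 0.68, the second TXNRD1 probe 0.51 and SOD1 probe A_73_P107601 0.21. The remaining probes of CAT, NQO1, SOD1, SOD2 and SRXN1 were lower there. Over all tested probes the median difference from control was -0.05 for TAT A, -0.03 for TAT B, -0.03 for gp120 A and 0.0017 for gp120 B. The letter A pairs lie within row 1 of the slide, whereas the letter B pairs set row 2 arrays against control B in row 1, and the part of the row in the letter B signs was not tested. HMOX1, for example, differed by 0.13 in TAT A minus control A and by -0.66 in TAT B minus control B, and SRXN1 by 0.35 and -0.50 in those pairs. On the brightest probes SOD1 was lower in both TAT pairs, by -0.29 and -0.31, and TXNRD1 in both, by -0.20 and -0.69. The second TXNRD1 probe and SOD1 probe A_73_112433 were also lower in both. SOD1 probes A_73_P032916 and A_73_P107601 changed sign, with 0.0069 and -0.35 and with -0.21 and 0.066 for letters A and B. In TAT minus gp120 3 of the 8 genes were higher for letter A, 3 for letter B and 6 for letter C. On the brightest probes NQO1 and SOD2 were higher with TAT in all 3 pairs, by 0.14 to 0.44 and by 0.07 to 0.51. The second NQO1 probe was also higher in each pair. The second SOD2 probe gave -0.22, 0.41 and 0.13 for letters A, B and C. On the brightest probes HMOX1 and SOD1 were lower with TAT in all 3 pairs, at -0.30 to -0.13 and at -0.27 to -0.07. The other SOD1 probes each changed sign between pairs. The letter B and C pairs set gp120 arrays of 1 scan against TAT arrays of another. With scan as a block, where the comparison sets TAT A, B and C against gp120 A alone, SOD2 became -1.05 and NQO1 kept its sign.

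Between the letters, in contrast, member probes were called. With the group kept in the fit, 5 of the 18 member probes (27.8%) passed the F test between letters, against 13.2% of all probes. These were both SOD2 probes, the second TXNRD1 probe and the second SRXN1 probe, higher in letter A, and the second NQO1 probe, lower in letter A. Of the brightest probes of the 8 genes only that of SOD2 passed the F test, a share no higher than that of all probes. The adjusted p of the others ran from 0.062 for NQO1 to 0.293 for SRXN1 (F test of limma). The brightest SOD2 probe stood at 5.50, 5.44 and 6.02 in TAT A, gp120 A and control A, against 3.82, 3.32 and 3.77 in TAT B, gp120 B and control B and 3.84 and 3.61 in TAT C and gp120 C. The 3 letter A arrays lay above the other 5 by at least 1.60, and control A was the highest of all. Letter A minus the mean of letters B and C was 1.91 (SE 0.16, adjusted p = 0.0019 in limma). The probe printed above stood at 4.73, 4.95 and 5.32 in TAT A, gp120 A and control A and at 2.46 to 2.97 in the other 5 arrays, a difference of 2.36 (SE 0.20, adjusted p = 0.0019 in limma).

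**Figure D2:**
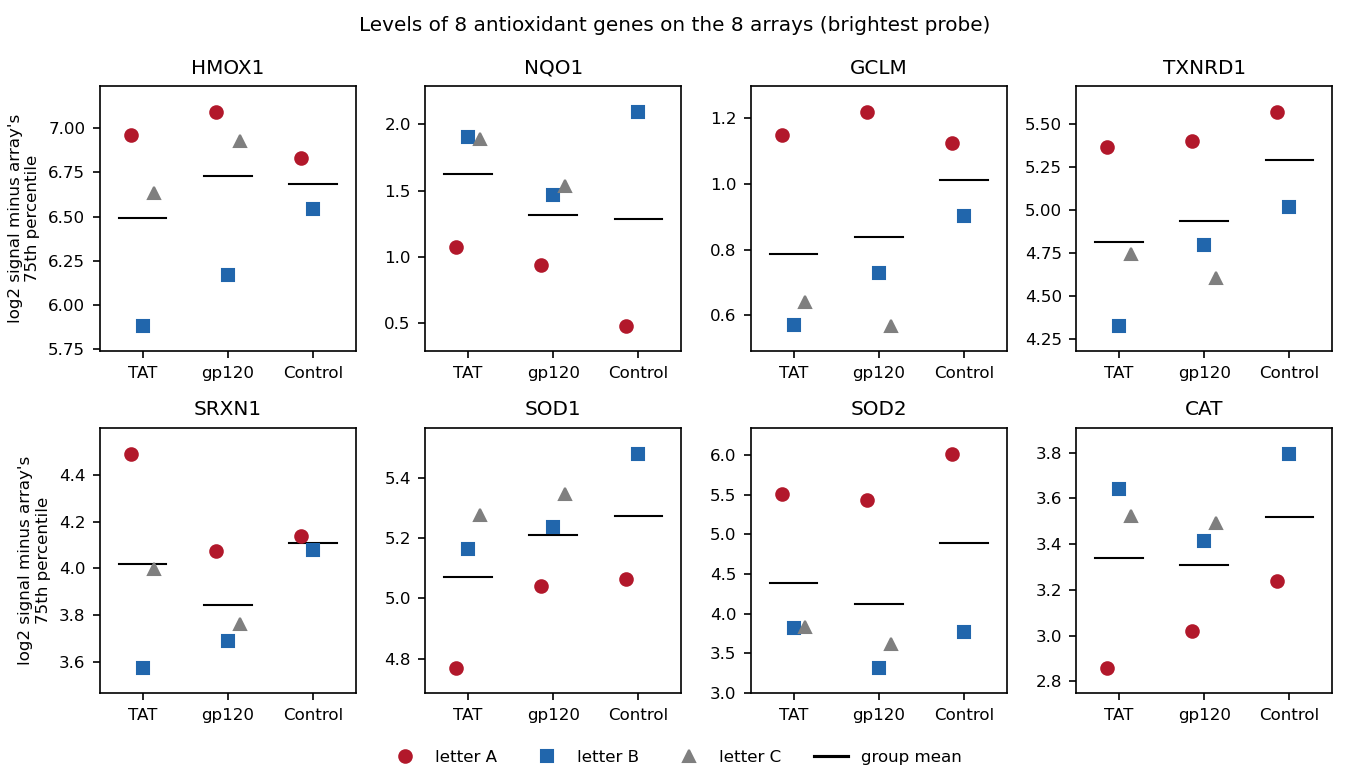
Log2 signal minus the array's 75th percentile (y axis, its range set for each gene) for the brightest probe of 8 genes in TAT, gp120 and control arrays (x axis). Each point is 1 array, marked by its letter, and lines are group means. SOD2 stood between 5.44 and 6.02 in letter A arrays and between 3.32 and 3.84 in the others, while TAT, gp120 and control points intermingle.

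As a second reading of the same fit, letter A minus letters B and C called 10 of the 18 probes (55.6%), against 18.4% of all probes. 5 were higher in letter A, where 9.12% of all probes were called, and 5 lower, where 9.28% were. The 18 probes come from 8 genes and are not independent of each other. Letter B minus letter C called 0 of 18, with 1.03% of all probes. By value alone, letter A lay wholly above or below the other 5 arrays in 14 of the 18 (6 above, 8 below), with 26.2% of all probes doing so.

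TXNRD1 was higher in letter A by 0.70 (SE 0.17, adjusted p = 0.037 in limma) on its brightest probe and by 1.21 (SE 0.19, adjusted p = 0.0097) on the printed one, which stood at -0.11, 0.0405 and 0.13 in TAT A, gp120 A and control A and at -1.47 to -0.62 in the other 5. SRXN1 differed between its probes. The second probe stood at -1.23, -1.54 and -1.23 in TAT A, gp120 A and control A and at -3.47 to -2.11 in the rest, a difference of 1.52 (SE 0.20, adjusted p = 0.0056), whereas the brightest gave 0.38 (SE 0.19, adjusted p = 0.200). GCLM gave 0.48 (SE 0.15, adjusted p = 0.072 in limma), with its 3 letter A arrays above the other 5 but the test not passed. HMOX1 gave 0.45 (SE 0.18, adjusted p = 0.137), and gp120 C, at 6.93, lay inside the letter A range of 6.83 to 7.10.

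NQO1 and CAT ran the other way. NQO1 was lower in letter A by -0.93 (SE 0.21, adjusted p = 0.031 in limma) on the brightest probe and by -0.86 (SE 0.17, adjusted p = 0.020) on the second, and all letter A arrays lay below the other 5 on both. CAT was lower by -0.57 (SE 0.15, adjusted p = 0.044) on the brightest probe and by -0.74 on each of the overlapping pair (SE 0.18 and 0.19, adjusted p = 0.035 and 0.042), and its other probe gave -0.63 (SE 0.20, adjusted p = 0.074). None of the CAT probes passed the F test, where their adjusted p ran from 0.058 to 0.096. The SOD1 probes gave -0.56 to -0.18 with 0 of 4 called. The 2 dismutases thus stood on opposite sides of 0 in the letter contrast, SOD2 called and SOD1 not, and the difference between them was not tested.

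**Figure D3:**
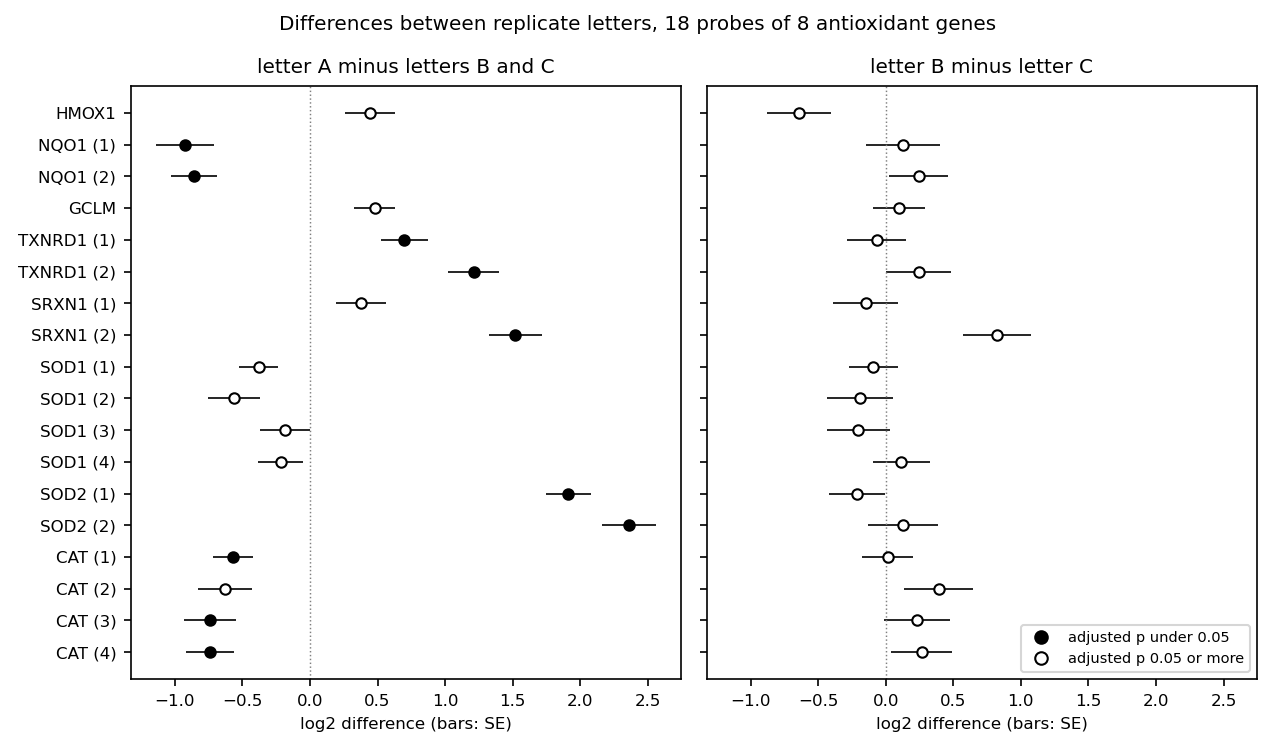
Log2 differences (x axis) of 18 probes of 8 antioxidant genes (y axis, probes of a gene numbered from the brightest) for letter A minus letters B and C and for letter B minus letter C, from the fit with group. Bars are SE and filled points have an adjusted p under 0.05. 5 filled points lie above 0 (SOD2, TXNRD1, SRXN1) and 5 below (NQO1, CAT), and letter B minus letter C has none.

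Letter A coincides almost wholly with slide row 1, where control B is the only array of another letter. With row as a block 0 of the 18 probes were called between letters (197 of all probes), and letter A minus letters B and C became 2.175 for the brightest SOD2 probe (adjusted p = 0.074 in limma), 0.50 for TXNRD1 (adjusted p = 0.48), -1.62 for NQO1 (adjusted p = 0.089) and -0.55 for CAT (adjusted p = 0.39). Control B itself, which shares the row with letter A, stood nearer to the row 2 arrays than to the letter A arrays in 16 of the 18 probes. The share over all probes was not counted. As control B is among the letter B arrays of the contrast, a call partly sets its place, so these values are no test of the row. For SOD2 control B stood at 3.77 on the brightest probe, inside the range of 3.32 to 3.84 of the row 2 arrays. For NQO1 it stood at 2.09, above every other array. Scan 1 held letters B and C alone, and with scan as a block 3 of the 18 were called (1659 of all probes). SOD2 stood at 3.32 and 3.61 in the 2 arrays of scan 1 (gp120 B and C) and at 3.82 and 3.84 in TAT B and C, which share row 2 but not the scan.

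Genes around the members were taken from 8 pathway lists. With TAT and with gp120 0 genes of any list were called. Calls between letters in the lists are those of the F test, which called 13.2% of all probes, and the differences given are letter A minus letters B and C. Among the regulators of NRF2 0 of 10 measured genes were called. NFE2L2 gave 0.83 (limma, adjusted p = 0.084 in the F test and 0.041 in the contrast itself) and its small MAF partner MAFF 0.93 (limma, adjusted p = 0.057 in the F test and 0.029 in the contrast), so both passed the contrast and not the F test. BACH1, which represses NRF2 targets, had the smallest p of its list with gp120, at -1.41 (unadjusted p = 0.026), and did not pass the adjusted test. Of 25 other NRF2 targets 7 were called between letters, 1 higher in letter A (PIR, 0.84) and 6 lower, among them SLC40A1, the iron exporter ferroportin, at -1.82 (SE 0.16) and the microsomal glutathione transferase MGST2 at -1.01 (SE 0.14).

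In the thioredoxin and peroxiredoxin list 3 of 18 genes were called, 2 higher in letter A and 1 lower, with PRDX1, a peroxide-reducing enzyme, higher in letter A at 1.27 (SE 0.22). Beside the 13.2% of all probes called in that test, neither this list nor those that follow in this paragraph stood out by count. In the glutathione list 2 of 23 were called, GSTK1 at -1.03 and GGT7 at -1.22. Of the heme and iron genes 2 of 14 were called: TFRC, the transferrin receptor, at 1.65 (SE 0.16) and ALAD of heme synthesis at -0.91 (SE 0.16). CYBB, the catalytic core of the phagocyte NADPH oxidase, at 1.103 (SE 0.22), was the 1 called of 11 genes of superoxide and peroxide handling, and ATF3 at 0.999 (SE 0.15) the 1 of 13 genes of the ATF4 response.

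The NF-kB and inflammatory list stood apart by count, with 11 of 22 genes called between letters, 10 higher in letter A and 1 lower, and a median of 1.13 against 0.03 over all probes. SAA3, an acute phase apolipoprotein, was higher in letter A by 3.83 (SE 0.18, adjusted p = 0.0009 in the F test of limma), and IL1B, the cytokine interleukin 1 beta, by 3.18 (SE 0.22, adjusted p = 0.0027). VCAM1, an adhesion molecule, was lower by -1.37 (SE 0.19). In each array the mean level of the list was between 1.96 and 2.60 for letter A and between 0.77 and 1.02 for letters B and C, so the arrays with high SOD2 were those with high levels of this list; earlier results of these data already showed arrays grouping by letter.

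**Figure D4:**
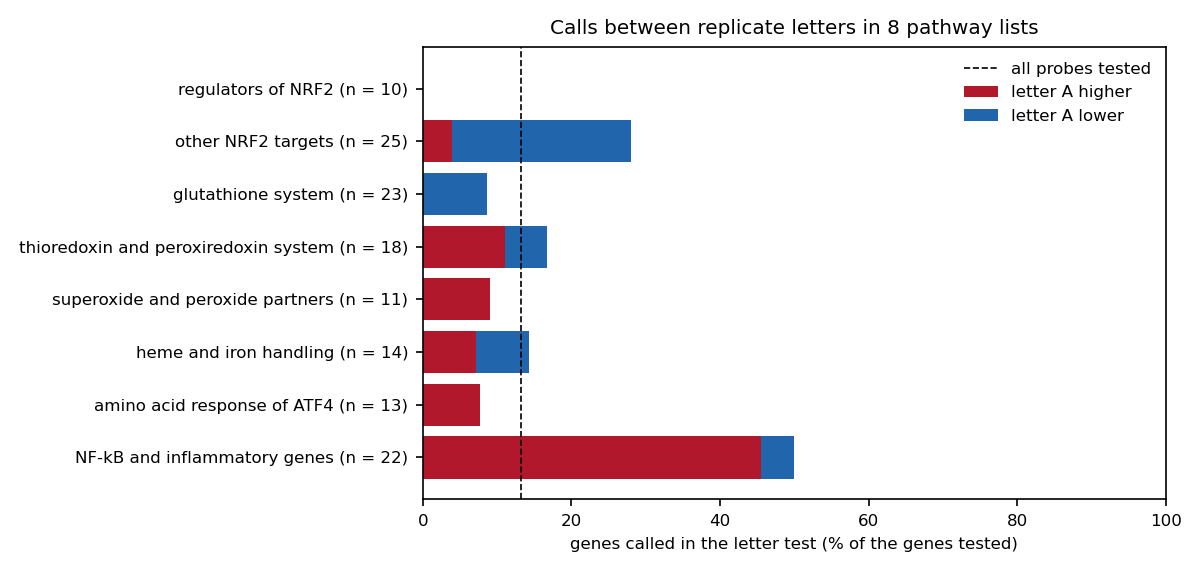
Share of measured genes called in the F test between letters (x axis, % of genes tested) in 8 pathway lists (y axis, n genes tested), divided by whether letter A was higher or lower. The dashed line is the 13.2% of all probes. The NF-kB and inflammatory list had 11 of 22 genes called and the regulators of NRF2 0 of 10.

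Markers of cell types were counted in the same fits. Between letters 1 of 13 Müller glia markers, 2 of 16 microglia markers, 1 of 13 fibroblast markers, 1 of 5 pigment epithelium markers and 2 of 6 neuron markers were called. Of all probes 13.2% were called in the same F test. The log2 of the summed microglial signal was 8.77 to 9.09 in letter A and 8.58 to 8.995 in letters B and C. With the proteins, 13 of 13 fibroblast markers were above 0 in TAT minus control (median 0.61, 0 called). In gp120 minus control 12 of 13 were (median 0.24, 0 called). Of all probes 45.4% and 48.7% were above 0 in those comparisons, with medians of -0.03 and -0.01. The log2 of the summed fibroblast signal was 8.63 to 8.96 with TAT, 8.29 to 8.81 with gp120 and 8.26 to 8.41 in controls. The part of these cells in the members' values was not tested.

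Other genes with the most similar profiles were looked up among 10805 genes well above background on every array, by Pearson's r over the 8 arrays. These values describe 8 arrays that fall into letters, and share their scaling and slide. For SOD2 they were EIF2AK3 (r = 0.994), B4GALT1 (0.992) and ZFYVE27 (0.988), for HMOX1 RELB (0.987), DIAPH1 (0.962) and ITPR3 (0.961), and for TXNRD1 N4BP3 (0.993), GGH (0.986) and MTUS1 (0.985). For NQO1 they included ATP13A2 (0.983) and LAPTM4B (0.980), and for CAT NUPR2 (0.987), FNDC4 (0.983) and RNF34 (0.971). GCLM ran with TSPAN17 (0.991), ABRACL (0.985) and RBM11 (0.985), SOD1 with PPID (0.987) and MIB1 (0.976) among others, and SRXN1 with MAPKAPK3 (0.959), RGS16 (0.957) and SEC24A (0.951).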

How the data were processed

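RNA of 8 samples was labelled with 1 dye and hybridised to 8 arrays of an Agilent bovine design. Spot intensity values were extracted by the authors, per the file headers, using Agilent Feature Extraction (version 11.5.1.1), and the processed signal used here is background-subtracted. The authors also deposited a log2 value table of rows by gene name, made in a way the sources used here do not give, and it served as an alternative. Control spots were dropped, as were 4 to 37 outlier spots on an array, and a probe spotted several times was averaged. Signals were log2 transformed and the array's 75th percentile subtracted. A probe was kept when some group had it well above background throughout (31153 of 51282 after leaving out missing values). A gene is represented by its brightest kept probe, and every member probe is given beside it. Gene names are those of the array, brought up to date for lists through the RefSeq table of current symbols by accession, symbol and synonym (16526 probes had no match).

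The tests used lmFit and eBayes of limma 3.58.1 under R 4.3.3 (1 fit of all arrays, Benjamini-Hochberg over all kept probes, two-sided, threshold 0.05). Letters were tested with group in the fit. The script was tested on simulated data. Deviations from group means correlated at 0.326 to 0.707 between arrays of different groups with the same letter (7 pairs) and at -0.60 to 0.41 with different letters (14 pairs). TAT and gp120 share 3 letters, and every same-letter pair was over 0.1. With control only 2 letters are shared, and the deviations of 2 controls from their mean mirror each other. Centring on group means tends to make correlations of different letters negative, and letter A nearly coincides with slide row 1. These values therefore do not settle whether the letters pair the samples, and the main fit leaves such a pairing out. The fit with letter as a block is an alternative. Named genes are all members, the 2 genes of each list with the smallest p in TAT minus control, in gp120 minus control and between letters, and the 3 genes of most similar profile per member. PIR was named after its value was seen. Some genes that this rule names are not reported here. The members, lists and tests were chosen with earlier results of these data known. Motifs and proteins were not analysed here.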

Additional observations from a re-analysis of the deposited data

How the results depend on the processing

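No member probe was called in TAT minus control, gp120 minus control or TAT minus gp120 under any alternative run. The letter as a replicate block gave 0 calls in each of these comparisons, as without it, and changed no call (1291, 2344 and 3177 of all probes at an unadjusted p under 0.05 in TAT minus control, gp120 minus control and TAT minus gp120). Over all probes the authors' value table gave 4, 3 and 15 calls of 18993 in those comparisons. With 1 array left out, calls ranged from 0 to 2 in TAT minus control and from 0 to 1 in gp120 minus control, both highest without control A. Between letters, 5 member probes were called, 10 with normexp, 3 with scan as a block, 0 with slide row as a block, 2 of 8 in the authors' value table and 2 to 4 with 1 array left out. Over all probes 4117 were called there, 1953 without the filter on dim probes, 1590 in the value table, 1659 with scan as a block, 197 with row as a block and 1052 to 2583 with 1 array left out. For normexp the count over all probes is not given here, so its 10 calls are not read as a result about the members. Removing 1 array leaves fewer samples, and where it leaves 1 control, that array is assumed to vary like the other groups. Leaving out an array under the letter block was added after seeing the data.

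Differences of named genes between the proteins and control, and of members between TAT and gp120, came to 2750 alternative values. Of these, 0 passed the threshold (lowest adjusted p = 0.076 in limma) and 399 had the opposite sign. The cause was not tested. These values are not separate checks. Scan 2 alone, slide row 1 alone and scan as a block gave the same values of gp120 minus control. In all of them that difference is gp120 A against control A and control B, so the letters are not balanced. In slide row 1 alone, TAT minus control is likewise TAT A against both controls. In the letter contrast, 415 of 558 values kept direction and side of the threshold, 127 fell short of it, 11 newly passed it and 5 had the opposite sign. SOD2 and the second SRXN1 probe lost that call only with row as a block, and TXNRD1's second probe also without gp120 C. The brightest NQO1, TXNRD1 and CAT probes lost it in 10, 11 and 11 of 17 settings. The second NQO1 probe lost it in 9 of 15 settings, and each of the overlapping CAT probes in 10 of 15. The values of opposite sign follow, on the log2 scale. Under the arrays of scan 2 alone, in gp120 minus control, NQO1 stood at -0.35, GCLM at 0.21, TXNRD1 at 0.11, SOD2 at 0.55, TNF at 0.42, OPLAH at 0.19 and MAFF at 0.0851. MSRA stood at -0.22, SAA3 at 1.87, IL1B at 0.97, SLC40A1 at -0.40, MGST2 at -0.17, TFRC at 0.0715 and ALAD at -0.44 in gp120 minus control under that setting. CEBPB stood at 0.21, GSTK1 at -0.15, GGT7 at -0.66, TXNRD3 at -0.0173, CYBB at 0.42 and NFE2L2 at 0.0630 in gp120 minus control under that setting. SRXN1 stood at -0.0515, SOD1 at 0.0283 and SOD2 at -1.05 in TAT minus gp120 under that setting. Under the arrays of slide row 1 alone, in TAT minus control, HMOX1 stood at 0.27, NQO1 at -0.21, GCLM at 0.14, TXNRD1 at 0.0739, SRXN1 at 0.38, SOD2 at 0.61 and TRIB3 at 0.10. TNF stood at 0.59, OPLAH at 0.13, MAFF at 0.45, VLDLR at 0.20, CHAC2 at 0.0014, MSRB3 at -0.24 and SAA3 at 2.32 in TAT minus control under that setting. IL1B stood at 2.15, SLC40A1 at -0.82, MGST2 at -0.33, TFRC at 0.18, ALAD at -0.0930, CEBPB at 0.45 and GSTK1 at -0.19 in TAT minus control under that setting. PRDX1 stood at 0.65, CYBB at 0.29, XDH at 0.21 and NFE2L2 at 0.37 in TAT minus control under that setting. NQO1 stood at -0.35, GCLM at 0.21, TXNRD1 at 0.11, SOD2 at 0.55, TNF at 0.42, OPLAH at 0.19 and MAFF at 0.0851 in gp120 minus control under that setting. MSRA stood at -0.22, SAA3 at 1.87, IL1B at 0.97, SLC40A1 at -0.40, MGST2 at -0.17, TFRC at 0.0715 and ALAD at -0.44 in gp120 minus control under that setting. CEBPB stood at 0.21, GSTK1 at -0.15, GGT7 at -0.66, TXNRD3 at -0.0173, CYBB at 0.42 and NFE2L2 at 0.0630 in gp120 minus control under that setting. CAT stood at -0.16 in TAT minus gp120 under that setting. Under the authors' value table, in TAT minus control, VLDLR stood at 0.0880, BACH1 at -0.23 and NFKB1 at 0.0605. HMOX1 stood at -0.0016, NQO1 at -0.0654, CAT at 0.0844, OPLAH at 0.32 and MAFF at 1.76 in gp120 minus control under that setting. VLDLR stood at 0.47, CEBPB at 0.0356, PRDX1 at -0.0203 and XDH at -0.0088 in gp120 minus control under that setting. GCLM stood at 0.11, SOD1 at 0.0858 and CAT at -0.0857 in TAT minus gp120 under that setting. GSTK1 stood at 0.19 and MAFF at -0.40 in letter A minus letters B and C under that setting. Under the mean of a gene's kept probes, in TAT minus control, VLDLR stood at 0.10, BACH1 at -0.0106, NFKB1 at 0.0174 and CEBPB at 0.0727. NQO1 stood at -0.0207, CAT at 0.13, OPLAH at 0.12 and CEBPB at 0.0473 in gp120 minus control under that setting. CAT stood at -0.22 in TAT minus gp120 under that setting. Under normexp background correction, in TAT minus control, CAT stood at 0.0688 and NFE2L2 at 0.0430. NQO1 stood at -0.0274, CAT at 0.0289, CUL3 at 0.0718, PRDX1 at -0.13 and XDH at -0.0633 in gp120 minus control under that setting. Under quantile normalization, in TAT minus control, NFE2L2 stood at 0.0159. HMOX1 stood at -0.0226 and PRDX4 at 0.0040 in gp120 minus control under that setting. Under the letter as a replicate block, in TAT minus control, CHAC2 stood at 0.0655, SAA3 at 0.30, IL1B at 0.28, CEBPB at 0.0802 and NFE2L2 at 0.0850. HMOX1 stood at -0.0403, NQO1 at -0.0963, OPLAH at 0.23 and MAFF at 0.0084 in gp120 minus control under that setting. SAA3 stood at 0.18, CEBPB at 0.20, TXNRD3 at -0.0056 and XDH at -0.0358 in gp120 minus control under that setting. Under letter and scan as 2 blocks, in TAT minus control, SAA3 stood at 0.34, IL1B at 0.30, CEBPB at 0.13 and NFE2L2 at 0.12. GCLM stood at 0.0168, GGT7 at -0.11, PRDX1 at -0.30, TXNRD3 at -0.23 and XDH at -0.18 in gp120 minus control under that setting. NQO1 stood at -0.0762 and CAT at -0.11 in TAT minus gp120 under that setting. Under scan as a block, in gp120 minus control, NQO1 stood at -0.35, GCLM at 0.21, TXNRD1 at 0.11, SOD2 at 0.55, TNF at 0.42, OPLAH at 0.19 and MAFF at 0.0851. MSRA stood at -0.22, SAA3 at 1.87, IL1B at 0.97, SLC40A1 at -0.40, MGST2 at -0.17, TFRC at 0.0715 and ALAD at -0.44 in gp120 minus control under that setting. CEBPB stood at 0.21, GSTK1 at -0.15, GGT7 at -0.66, TXNRD3 at -0.0173, CYBB at 0.42 and NFE2L2 at 0.0630 in gp120 minus control under that setting. SRXN1 stood at -0.0515, SOD1 at 0.0283 and SOD2 at -1.05 in TAT minus gp120 under that setting. Under slide row as a block, in TAT minus control, HMOX1 stood at 0.22, NQO1 at -0.13, GCLM at 0.15, TXNRD1 at 0.0298, SRXN1 at 0.26, SOD2 at 0.71 and TNF at 0.43. PRDX4 stood at -0.0382, MAFF at 0.22, VLDLR at 0.24, PARK7 at -0.0102, CHAC2 at 0.32, MSRB3 at -0.12 and SAA3 at 2.16 in TAT minus control under that setting. IL1B stood at 1.92, SLC40A1 at -0.72, MGST2 at -0.31, TFRC at 0.0827, ALAD at -0.15, CEBPB at 0.27 and GSTK1 at -0.19 in TAT minus control under that setting. GGT7 stood at -0.0021, PRDX1 at 0.39, CYBB at 0.52, XDH at 0.19 and NFE2L2 at 0.34 in TAT minus control under that setting. NQO1 stood at -0.44, GCLM at 0.20, TXNRD1 at 0.15, SRXN1 at 0.0831, SOD2 at 0.45, TNF at 0.58 and OPLAH at 0.45 in gp120 minus control under that setting. MAFF stood at 0.32, MSRA at -0.16, SAA3 at 2.03, IL1B at 1.21, SLC40A1 at -0.49, MGST2 at -0.20 and TFRC at 0.17 in gp120 minus control under that setting. ALAD stood at -0.38, CEBPB at 0.39, GSTK1 at -0.16, GGT7 at -0.38, CYBB at 0.19 and NFE2L2 at 0.0862 in gp120 minus control under that setting. HMOX1 stood at -0.0850, SRXN1 at -0.0622 and SOD1 probe A_73_P107601 at 0.0945 in letter A minus letters B and C under that setting.

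HMOX1 ranged from -0.64 to 0.11, NQO1 from -0.47 to 1.14, GCLM from -0.41 to 0.0352, SRXN1 from -0.36 to 0.23 and SOD1 from -0.41 to 0.0065 in TAT minus control with 1 array left out. SOD2 ranged from -1.63 to 0.62, CAT from -0.45 to 0.10, PRDX4 from -0.0138 to 0.35, MAFF from -0.80 to 0.19 and VLDLR from -0.37 to 0.18 in TAT minus control. BACH1 ranged from -0.0676 to 0.77, PARK7 from -0.18 to 0.32, CHAC2 from -0.36 to 0.32, NFKB1 from -0.60 to 0.10 and MSRB3 from -0.32 to 0.83 in TAT minus control. MSRA ranged from -0.34 to 0.22, SAA3 from -2.35 to 1.65, IL1B from -1.58 to 0.92, SLC40A1 from -0.25 to 1.30 and MGST2 from -0.0983 to 0.88 in TAT minus control. ALAD ranged from -0.25 to 1.02, CEBPB from -0.61 to 0.33, PRDX1 from -1.21 to 0.54, TXNRD3 from -0.55 to 0.11 and CYBB from -0.70 to 0.12 in TAT minus control. XDH ranged from -0.73 to 0.51 and NFE2L2 from -0.78 to 0.66 in TAT minus control. HMOX1 ranged from -0.40 to 0.33, NQO1 from -0.78 to 0.83, GCLM from -0.36 to 0.0872, SRXN1 from -0.53 to 0.0525 and SOD1 from -0.27 to 0.14 in gp120 minus control with 1 array left out. SOD2 ranged from -1.90 to 0.36, CAT from -0.49 to 0.0689, TNF from -1.21 to 0.0722, GPX8 from -0.44 to 0.13 and OPLAH from -0.26 to 0.49 in gp120 minus control. PRDX5 ranged from -0.29 to 0.18, PRDX4 from -0.27 to 0.19, CUL3 from -0.18 to 0.0492, MAFF from -0.63 to 0.25 and MSRB3 from -0.92 to 0.23 in gp120 minus control. MSRA ranged from -0.0270 to 0.53, SAA3 from -2.47 to 1.53, IL1B from -2.29 to 0.20, SLC40A1 from -0.0243 to 1.52 and TFRC from -1.77 to 0.0019 in gp120 minus control. ALAD ranged from -0.47 to 0.80, CEBPB from -0.49 to 0.46, GGT7 from -0.18 to 1.08, PRDX1 from -0.85 to 0.90 and TXNRD3 from -0.0739 to 0.54 in gp120 minus control. XDH ranged from -0.59 to 0.65 and NFE2L2 from -1.03 to 0.41 in gp120 minus control. HMOX1 ranged from -0.52 to 0.0658, GCLM from -0.23 to 0.14, TXNRD1 from -0.40 to 0.12 and SRXN1 from -0.0560 to 0.40 in TAT minus gp120 with 1 array left out. SOD1 ranged from -0.24 to 0.0123, SOD2 from -0.29 to 0.92 and CAT from -0.12 to 0.27 in TAT minus gp120.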

Other observations

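3 further probes carry a member's name only in their description and entered none of the counts, though each was well above background on all 8 arrays. A probe described as the catalytic subunit of glutamate-cysteine ligase, the product of GCLC, stood at 0.69, -0.34 and -1.09 in TAT A, B and C, at 1.26, 0.90 and -0.83 in gp120 A, B and C, and at 1.75 and -0.36 in control A and B. Its highest value was that of control A, while gp120 B lay among the letter A arrays. A probe described as SRXN1 stood at 2.87, 0.39 and 0.71 in TAT A, B and C, at 2.74, 1.77 and 1.30 in gp120 A, B and C, and at 2.42 and 1.24 in control A and B, with its 3 letter A arrays above the other 5. A probe described as copper-zinc superoxide dismutase, the product of SOD1, stood at 4.31, 4.80 and 4.997 in TAT A, B and C, at 4.46, 4.64 and 4.88 in gp120 A, B and C, and at 4.48 and 5.08 in control A and B, with its 3 letter A arrays below the other 5.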
